A study of Mus musculus with 36 samples.

Results

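The genes lying within 10 Mb of Ret on mouse chromosome 6 were followed by their distance from Ret, by labelled genotype and by stage. Members were rows of the deposited gene tables whose locus starts between chr6:108151748 and chr6:128151748 (mm10) and that reached 1 FPKM, a read count scaled by transcript length and library size, in at least 3 of 36 libraries. Ret itself, Tpi1 and names starting with Nduf, Cox, Uqcr, Atp5, Kcn, Scn, Cacn or Plxn were left out. Of 241 rows in the window, 155 reached that level, 8 of them were left out by name and 86 did not reach it, which left 147 members of 23847 rows in all (14441 of them at that level). The level of 1 FPKM chose the members without regard to genotype. Among the members 112 reached 1 FPKM in every library and 35 did not, and a gene expressed in few libraries could enter only through the group where it was high.

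The libraries were made from poly(A)-selected RNA of embryonic gut of C57BL/6J mice at the embryonic stages E10.5, E12.5 or E14.5 (days of gestation); females and males were labelled Ret null or wild type. There were 3 libraries in each of the 12 groups of stage, genotype and sex. The labels name the allele only as Ret null, and give neither its construction nor the litters. Nor do they tell whether the replicates were different embryos; the p-values rest on the spread among replicates, and part of that may be technical.

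Ret is a receptor tyrosine kinase that binds GDNF-family ligands together with a co-receptor. Neural crest cells that enter the gut need it to colonise the gut wall and form the enteric nervous system, and mice without it lack most enteric neurons. Genes that lie side by side on a chromosome can share promoters and other regulatory DNA, and they are inherited together.

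The levels of Ret (chr6:118151748-118197744) did not follow the labels in every library. Ret was at 2.11 to 13.3 FPKM in the 18 wild-type libraries and from 0.0111 to 0.0587 in 11 of 18 null-labelled ones. In the 7 that remain it was at 4.74 to 6.49 FPKM: E10.5 null females 1, 2 and 3, E12.5 null male 2, E14.5 null females 1 and 3 and E14.5 null male 1. At E10.5 this split is the same as the split by labelled sex, so the 2 cannot be told apart there. Sex-linked genes went against the labelled sex in 4 libraries (E10.5 null female 3, E10.5 null male 1, and E12.5 wild-type females 1 and 2). In 4 pairs of libraries the values differed by no more than counting noise, and such pairs entered the fits as their mean, so 32 samples remained. Estimated depth was 8.39 to 21.4 M fragments (M, mega) at E10.5, 21.6 to 51.3 M at E12.5 and 6.08 to 9.67 M at E14.5. The genotype comparisons at each stage, in the mean of stages and between stages are therefore given as labelled and again without the 7 libraries labelled null that hold Ret RNA. Guts are mixed tissue, and fewer cells of a type and less RNA per cell cannot be told apart in them. Of the 12 marker lists for cell types, enteric neuron markers were found in all groups, and markers of liver, heart, pancreas and blood were also present and are given beside the results they move with.

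The promoter sequences of 4 members are shown because the results below turn on these genes: 2 that were higher in libraries labelled null at E14.5 (Fam21 and Mbd4), 1 that was low only where Ret RNA was absent at that stage (Lhfpl4), and 1 that was called at E10.5 and at E14.5 in opposite directions (Ptms). Each is the RefSeq sequence (GRCm38.p6) before the gene's start, 5′ to 3′ on the gene's own strand. Capitals mark matches, on either strand, to the TATA box motif TATAAA, the CCAAT box, the GC box motif GGGCGG and the E box motif CACGTG. Fam21 (Washc2 in RefSeq, plus strand) is shown at chr6:116207783-116208032, a stretch that also holds part of an antisense noncoding transcript. Mbd4 (minus strand) is shown at chr6:115853372-115853469, the 98 bases between its first exon and that of Ift122, which is transcribed the other way. Lhfpl4 (minus strand) is shown at chr6:113195385-113195634 and Ptms (minus strand) at chr6:124917947-124918196.
Fam21: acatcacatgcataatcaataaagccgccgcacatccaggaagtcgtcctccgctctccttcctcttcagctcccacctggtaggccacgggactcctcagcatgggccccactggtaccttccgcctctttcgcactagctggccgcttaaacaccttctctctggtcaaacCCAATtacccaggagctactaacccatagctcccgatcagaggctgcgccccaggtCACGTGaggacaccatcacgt
Mbd4: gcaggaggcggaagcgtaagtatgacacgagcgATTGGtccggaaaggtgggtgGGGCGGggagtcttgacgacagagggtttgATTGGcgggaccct
Lhfpl4: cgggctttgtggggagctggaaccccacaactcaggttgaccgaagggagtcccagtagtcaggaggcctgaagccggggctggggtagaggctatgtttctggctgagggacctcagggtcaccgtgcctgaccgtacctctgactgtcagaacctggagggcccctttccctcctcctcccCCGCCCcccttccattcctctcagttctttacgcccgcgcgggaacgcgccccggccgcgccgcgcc
Ptms: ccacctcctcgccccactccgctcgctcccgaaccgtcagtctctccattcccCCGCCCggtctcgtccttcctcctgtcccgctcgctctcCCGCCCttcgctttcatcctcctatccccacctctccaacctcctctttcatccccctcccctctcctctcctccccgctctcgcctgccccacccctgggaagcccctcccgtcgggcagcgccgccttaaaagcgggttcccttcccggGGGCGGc
The Fam21 stretch held 1 CCAAT box and 1 E box motif, the Mbd4 stretch 2 CCAAT boxes and 1 GC box motif, the Lhfpl4 stretch 1 GC box motif and the Ptms stretch 3. The TATA box motif was not among the letters of any of these windows. Over 32851 RefSeq promoters of 250 bases, 12.4% held the TATA box motif, 33.8% the CCAAT box, 32.7% the GC box motif and 6.02% the E box motif. Over the same 98-base stretch of all promoters, 18.7% held the CCAAT box and 21.6% the GC box motif. A match describes the letters only.

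The members spread unevenly over the window and covered a wide range of levels. By start, 59 lay at lower and 88 at higher coordinates than Ret, with 9 within 1 Mb, 26 at 1 to 2.5 Mb, 52 at 2.5 to 5 Mb and 60 at 5 to 10 Mb. RefSeq lists 144 as protein coding and 3 as other classes. The median member had a median of 7.45 FPKM over the 36 libraries, 8 members had a median of at least 100 FPKM, and 21 had one under 1 FPKM. The highest medians belonged to Gapdh, a glycolytic enzyme, and Rpl32, a protein of the large ribosomal subunit. Next came Hnrnpf, an RNA-binding splicing factor, Ptms (parathymosin, a small acidic nuclear protein) and Grcc10. Rpl32 ran from 1044 to 1805 FPKM, while Gapdh was listed at 0 in 5 E12.5 libraries and reached 10303 in others, so it was not tested in any comparison that uses E12.5. Both genes have many near-identical pseudogenes, which makes their values uncertain.

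At the bounds of the rule, Itpr1 (9.94 Mb below Ret) and Tspan9 (9.81 Mb above) were the outermost members, and Sumf1 (10.04 Mb below) and Tead4 (10.08 Mb above) lay just outside. By level, the third-highest FPKM was 1.02 in Usp18, 1.05 in A2m and 1.11 in C1ra, the lowest members, and 0.994 in Ssu2, 0.987 in Atp2b2 and 0.910 in Clec4a3, the highest rows left out.

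**Figure D1:**
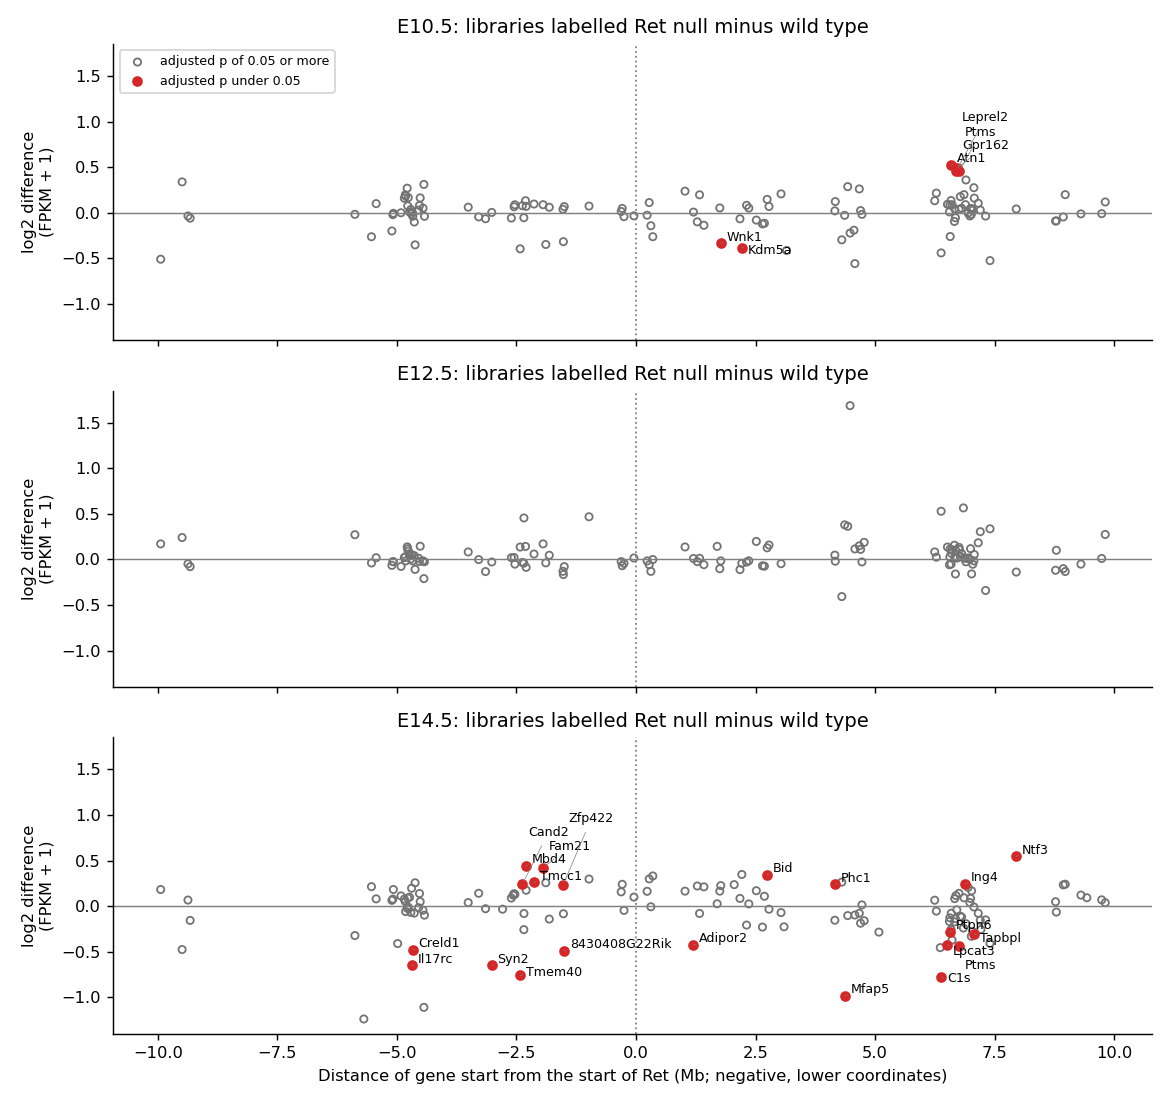
Difference between libraries labelled Ret null and wild type in log2(FPKM + 1), on the vertical axis, for each member tested, against the distance of its start from the start of Ret in Mb; filled points passed an adjusted p of 0.05 (limma) and carry names. At E10.5 there are 6 filled points, all between 1.77 and 6.76 Mb above Ret, at E12.5 there are none, and at E14.5 the 21 filled points lie on both sides of Ret with none closer than 1.20 Mb.

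The genes closest to Ret were taken in order of distance. The 5 nearest at lower coordinates were Csgalnact2 (0.0443 Mb away), which makes chondroitin sulfate chains, Hnrnpf (0.251 Mb), the zinc finger genes Zfp239 (0.289 Mb) and Zfp637 (0.311 Mb), and Cxcl12 (0.983 Mb), a chemokine that guides migrating cells. The 5 nearest at higher coordinates were Bms1 (0.232 Mb), a ribosome assembly factor, the zinc finger genes Zfp248 (0.276 Mb) and Zfp9 (0.310 Mb), Ankrd26 (0.351 Mb) and Dcp1b (1.02 Mb), a cofactor in removing mRNA caps. At each single stage, no member within 1 Mb of Ret passed the test in the libraries as labelled.

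Csgalnact2, the next gene to Ret at lower coordinates, ran from 3.42 to 3.95 FPKM in wild type and from 3.22 to 4.13 in the libraries labelled null at E10.5. At E14.5 it ran from 3.97 to 5.96 in wild type and from 4.46 to 5.53 in the null group. The groups overlapped at each of these stages and also at E12.5 (3.69 to 4.91 against 3.30 to 5.19). Its log2 differences were -0.03 (SE 0.08) at E10.5, 0.02 (SE 0.11) at E12.5 and 0.10 (SE 0.10) at E14.5, none past the threshold (limma adjusted p of 0.799, 0.968 and 0.477).

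On the other side, Bms1 ran from 17.2 to 20.8 FPKM in wild type and from 20.4 to 23.8 in the null group at E14.5, ranges that overlap at their ends (log2 difference 0.16, SE 0.06, limma adjusted p = 0.0753). Zfp239 was similar, at 2.24 to 3.09 in wild type and 3.02 to 3.78 in the null group (0.24, SE 0.08, limma adjusted p = 0.0638). Hnrnpf, an abundant gene, was nearly level at 401 to 458 FPKM in wild type and 402 to 436 in the null group (-0.05, SE 0.05). The 9 members within 1 Mb had a median log2 difference of 0.16 at E14.5, beside 0.04 over all genes tested and 0.003 over all 140 members tested.

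Cxcl12 varied widely between libraries of a group before E14.5. It ran from 57.7 to 202 FPKM in wild type and from 80.2 to 181 in the null group at E10.5, and the groups overlapped there and at E12.5. At E14.5 the wild-type libraries stood at 60.8 to 88.7 FPKM, the 3 null libraries with Ret RNA at 70.6 to 104 and the 3 without Ret RNA at 104 to 114. Only the libraries without Ret RNA lay wholly above wild type, and in that comparison Cxcl12 rose (log2 0.49, SE 0.11, limma adjusted p = 0.0406). As labelled the difference was 0.30 (SE 0.13, adjusted p = 0.117). The call without the Ret-holding libraries was lost when any of 6 of the 9 remaining libraries was left out, with adjusted p between 0.0213 and 0.151.

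Dcp1b, just past 1 Mb, was a little higher in the libraries labelled null at each stage. Its log2 differences were 0.24 at E10.5, 0.14 at E12.5 and 0.16 at E14.5, and none passed at a single stage. In the mean of the 3 stages it rose (0.18, SE 0.04, limma adjusted p = 0.00914). Dcp1b overlaps Cacna1c, a calcium channel gene that is no member, and since no source used here says that the counting used strand, reads of overlapping genes cannot be told apart.

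At E10.5, 6 of 129 members tested passed in the libraries as labelled, 4.65% beside 8.29% of all 13165 genes tested. Atn1 (atrophin 1, a transcriptional corepressor), Gpr162 (an orphan receptor), Leprel2 (P3h3, a collagen prolyl hydroxylase) and Ptms were higher. Wnk1, a kinase that controls chloride cotransport, and Kdm5a, a histone H3K4 demethylase, were lower. The 4 higher genes lie close together, 6.59 to 6.76 Mb above Ret, and the 2 lower genes at 1.77 and 2.21 Mb above it.

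The labelled sexes differed for 3 of the higher genes. Atn1 was at 28.7, 30.3 and 31.0 FPKM in wild-type females, 45.9, 52.1 and 52.5 in wild-type males, 48.0, 57.4 and 59.5 in null females and 54.9, 59.8 and 61.8 in null males. The wild-type females stood apart, and the wild-type males overlapped the null females. The log2 difference averaged over the sexes was 0.52 (SE 0.07, limma adjusted p = 0.00994), with 0.79 in females (adjusted p = 0.0111) and 0.26 in males (adjusted p = 0.244).

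Gpr162 had the same shape, at 2.60 to 3.13 FPKM in wild-type females and 6.04 to 7.61 in the other 3 groups. Its difference was 0.96 in females and 0.01 in males (limma adjusted p = 0.00813 and 0.965). Leprel2 was at 15.5 to 20.6 FPKM in wild-type females and 28.4 to 37.7 elsewhere (0.80 in females, adjusted p = 0.0282, and 0.10 in males, adjusted p = 0.737). Wild-type males and females at E10.5 differed for 13 of 129 members (10.1%, beside 8.93% of all genes). Of these, Gpr162 (1.04), Leprel2 (0.81) and Atn1 (0.68) were higher in males. The wild-type females were also the most deeply sequenced E10.5 group, at 16.3 to 21.4 M fragments. Their summed liver markers, at 651.5 to 832.5 FPKM, lay above those of all other E10.5 libraries (17.87 to 388.2), while their smooth muscle (121.5 to 130.3 against 229.8 to 529.1) and pancreas markers (3.389 to 8.483 against 9.209 to 19.03) lay below them. The part of depth and of these tissues in the values was not tested. The difference of the genotype effect between the sexes passed for 0 of 129 members by limma, with 20 of them at an unadjusted p under 0.05 (15.5%, beside 18.7% of all genes).

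Wnk1 was lower in null libraries of both labelled sexes. It was at 29.8, 30.1 and 30.4 FPKM in wild-type females, 27.5, 28.5 and 28.9 in wild-type males, 23.6, 24.1 and 24.3 in null females and 20.5, 21.7 and 23.8 in null males. Every null library lay below every wild-type library. The log2 difference was -0.34 (SE 0.05, limma adjusted p = 0.0161), -0.31 in females and -0.36 in males. Kdm5a was at 7.65 to 11.3 FPKM in wild type and 6.24 to 8.14 in the null group, with overlap (-0.38, SE 0.08, limma adjusted p = 0.0342).

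Ptms was at 209 to 218 FPKM in wild-type females, 228 to 279 in wild-type males, 253 to 338 in null females and 339 to 361 in null males. The null males, which are the E10.5 libraries without Ret RNA, were highest, and the null females overlapped wild-type males. Ptms rose by 0.45 (SE 0.08, limma adjusted p = 0.0192). Summed smooth muscle markers also separated the groups at this stage (121.5 to 256.1 FPKM in wild type, 382.5 to 529.1 in the null group), and stomach markers ran from 3.389 to 42.05 in wild type and from 9.38 to 129.4 in the null group. Their part in these differences was not tested. With the Ret-holding libraries left out, which leaves null males alone, 0 of 128 members passed by limma, beside 0.522% of all genes, and 21 members had an unadjusted p under 0.05 (16.4%, beside 20.2% of all genes). The smallest p-values there were those of Ptms (0.49, adjusted p = 0.0580), Wnk1 (-0.36, adjusted p = 0.0942) and Rimklb (-0.48, adjusted p = 0.0947). As labelled, leaving out 1 library moved the count of 6 to 1 (without wild-type male 5), 2 (wild-type male 3), 3 (null male 1) or 12 (null female 3). For counts with 1 library left out, here and below, the share of all genes is not shown. Whether all genes moved alike is therefore not known.

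**Figure D2:**
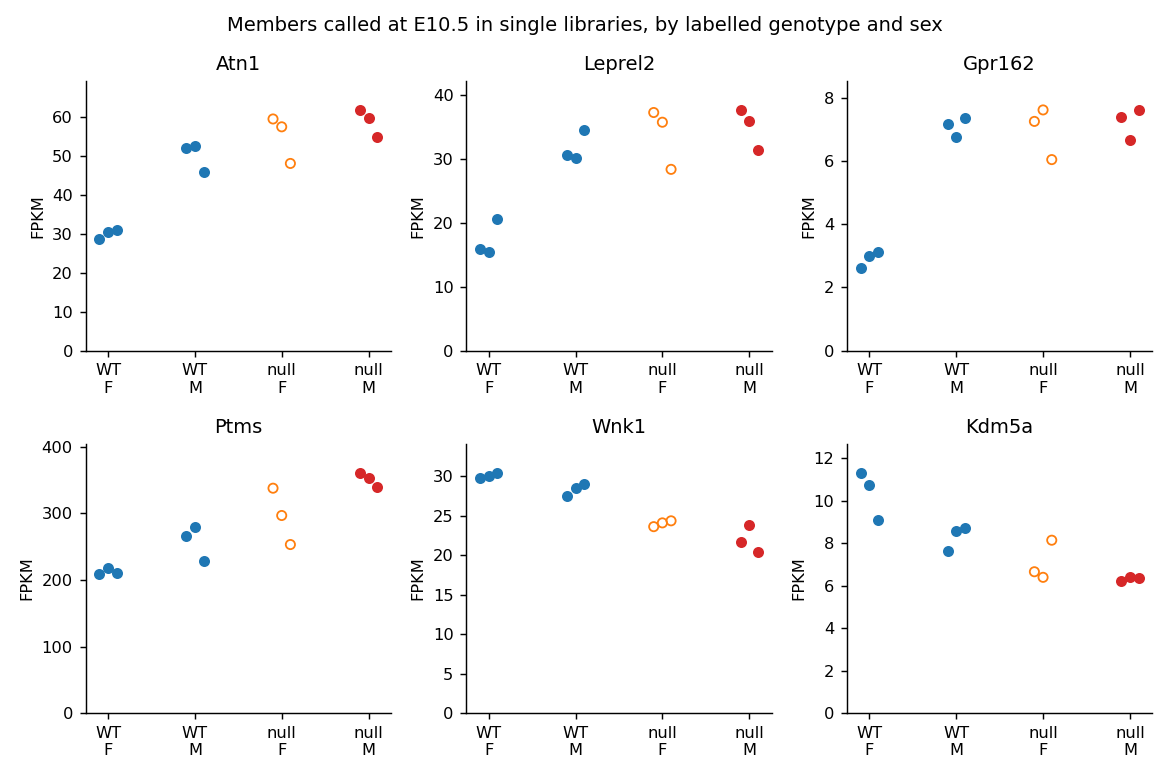
FPKM of the 6 members called at E10.5 in single libraries, grouped on the horizontal axis by labelled genotype (WT, wild type) and sex (F, female; M, male), 1 panel a gene with its axis starting at 0. For Atn1, Leprel2 and Gpr162 the wild-type females stand below all other libraries, whereas for Wnk1 both null groups stand below both wild-type groups.

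At E12.5, the stage with the deepest libraries, 0 of 129 members passed by limma, beside 0.00759% of all genes, and 16 members (12.4%) had an unadjusted p under 0.05, beside 8.46% of all genes. The smallest p-values were those of Rimklb, Tnfrsf1a and Fam21. Rimklb, an enzyme that makes N-acetylaspartylglutamate, was at 14.6 to 17.97 FPKM in wild type and 9.89 to 14.9 in the libraries labelled null, where the highest was the 1 library that holds Ret RNA. The log2 difference was -0.41 (SE 0.08, limma adjusted p = 0.313). Tnfrsf1a, the main receptor for tumour necrosis factor, was at 16.04 to 17.9 in wild type and 18.1 to 23.4 in the null group. These ranges did not overlap, though the difference of 0.30 did not pass (limma adjusted p = 0.404). Fam21 stood 0.17 higher (adjusted p = 0.512). The largest difference belonged to Dppa3, a germ cell gene with near-identical copies (1.69, SE 0.63, limma adjusted p = 0.565), which is named after its values were seen. Groups did not overlap for 3 of 147 members at this stage (0.886% of all genes). Without the Ret-holding library 0 of 129 members passed (0.259% of all genes), 15 had an unadjusted p under 0.05 (11.6%, beside 7.87%), and the smallest p-values belonged to Rimklb (-0.44, adjusted p = 0.120), Tnfrsf1a (0.28, adjusted p = 0.401) and Tada3 (0.16, adjusted p = 0.458).

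At E14.5, 21 of 140 members passed in the libraries as labelled, 15.0% beside 15.7% of all 13861 genes tested. Estimated depth at this stage was 6.08 to 8.31 M fragments in wild type and 7.6 to 9.67 M in the null group. Only wild-type male 3 was deeper than any null library (null male 3). The part of depth in the genotype differences was not tested. Of the 21 members, 9 were higher and 12 lower in the null group, that is 42.9% higher, beside 69.1% of all called genes. With each library centred on its median, 19 members passed, 5 higher and 14 lower, which moved the share higher to 26.3% (45.9% over all genes). Fam21, Mbd4, Tmcc1, Ing4 and Zfp422 passed as higher under that scaling, and Ntf3, Bid, Cand2 and Phc1 no longer did. No named gene changed direction under either scaling.

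Of the 9 higher genes, 5 lay between 1.53 and 2.38 Mb below Ret. Fam21 (chr6:116208033-116262671, 1.94 Mb away) encodes a subunit of the WASH complex, which builds actin on endosomes. At E14.5 it was at 14.7, 15.0, 15.0, 15.1, 15.1 and 15.6 FPKM in wild type. The null libraries with Ret RNA were at 17.9, 20.1 and 20.2 FPKM, and those without at 21.0, 21.5 and 22.9. Both kinds lay wholly above wild type, and those without Ret RNA lay above those with it. Fam21 rose by 0.42 (SE 0.06, limma adjusted p = 0.00703), a 1.34-fold higher level, and by 0.52 (SE 0.06, adjusted p = 0.00713) without the Ret-holding libraries.

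Mbd4 (chr6:115840697-115853341, 2.31 Mb away) encodes a DNA glycosylase that repairs mismatches at methylated CpG sites. It was at 4.24 to 6.16 FPKM in wild type, 6.25 to 7.08 in the null libraries with Ret RNA and 7.35 to 7.75 in those without. These 3 ranges did not overlap. Mbd4 rose by 0.44 (SE 0.09, limma adjusted p = 0.0163), and by 0.53 (SE 0.12, adjusted p = 0.0434) without the Ret-holding libraries, a call that held in 1 of the 9 fits that leave out 1 more library.

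Tmcc1 (chr6:116018618-116193374, 2.13 Mb away), a membrane protein of the endoplasmic reticulum, lies between them. It was at 4.89 to 5.94 FPKM in wild type, 6.14 to 6.58 with Ret RNA and 6.68 to 7.08 without, again with no overlap, and rose by 0.26 (SE 0.06, limma adjusted p = 0.0195). Without the Ret-holding libraries Tmcc1 did not pass at this stage. Of the neighbours, Ift122, a transport protein of cilia that shares its promoter stretch with Mbd4, was 0.17 higher (limma adjusted p = 0.0865). Zfand4, next to Fam21, was 0.26 higher (adjusted p = 0.0548). Neither passed. Zfp422, a zinc finger gene 1.53 Mb below Ret, was at 30.1 to 33.3 FPKM in wild type and 34.7 to 40.9 in the null group and rose by 0.23 (SE 0.04, limma adjusted p = 0.0133), again with no overlap. Cand2, a regulator of ubiquitin ligases that overlaps Rpl32, rose by 0.24 (adjusted p = 0.0419), and lost its call in 14 of 23 alternative fits.

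**Figure D3:**
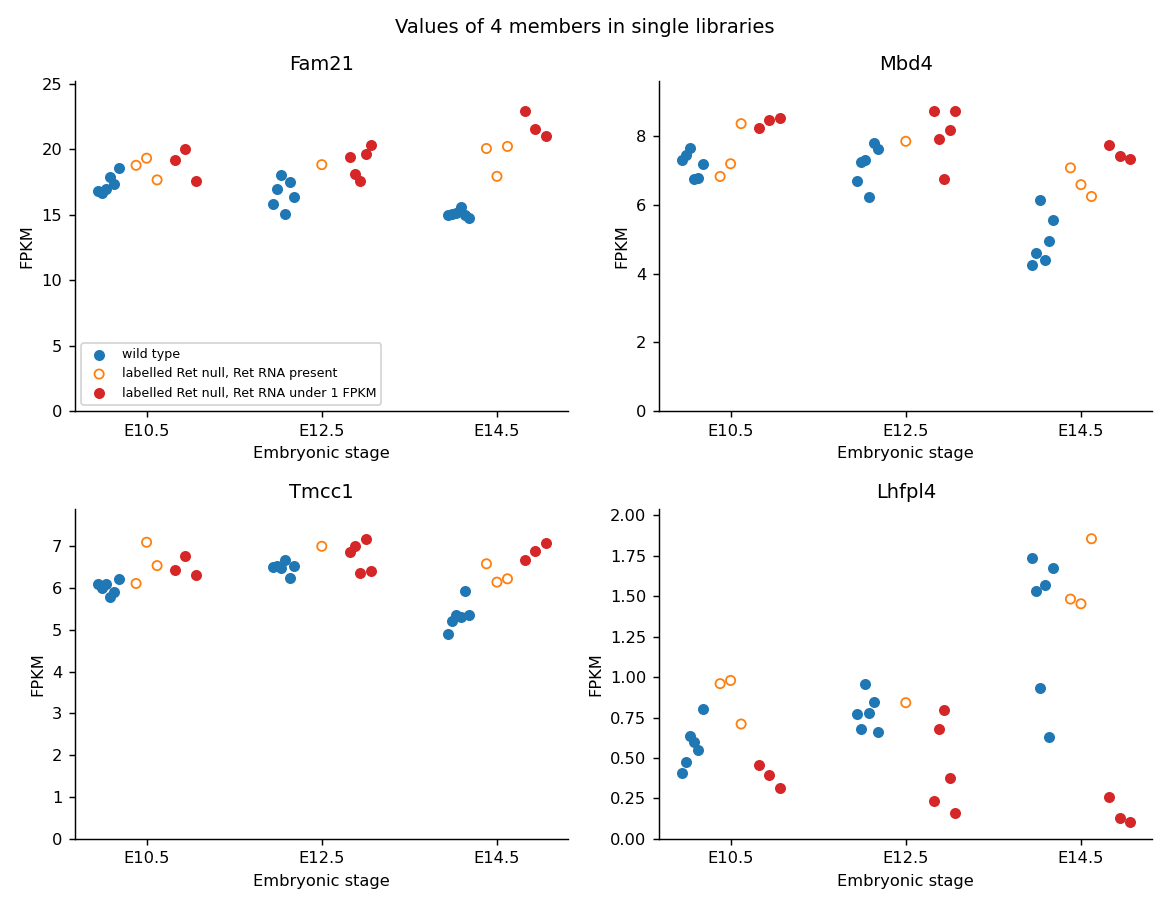
FPKM of Fam21, Mbd4, Tmcc1 and Lhfpl4 in single libraries by embryonic stage, with wild type, libraries labelled Ret null with Ret RNA and libraries labelled Ret null without it marked apart; axes start at 0. At E14.5 the first 3 genes are lowest in wild type and highest without Ret RNA, while Lhfpl4 is low only without Ret RNA (0.104 to 0.256 FPKM).

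Farther from Ret, Ing4, a chromatin reader 6.89 Mb above, was at 41.8 to 46.8 FPKM in wild type and 49.5 to 56.5 in the null group, with no overlap, and rose by 0.25 (SE 0.05, limma adjusted p = 0.0133). Ntf3 (neurotrophin 3, a survival factor for neurons) rose by 0.55 (SE 0.15, adjusted p = 0.0362). Bid, which starts cell death at mitochondria, rose by 0.34 (adjusted p = 0.0490) and Phc1, a Polycomb protein, by 0.24 (adjusted p = 0.0452). Wild type overlapped the null group for Ntf3, Bid and Phc1, and each lost its call in 12 or more of 23 alternative fits.

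Among the lower genes, Mfap5 (a protein of elastic microfibrils) was at 2.56 to 5.54 FPKM in wild type. The null group was at 0.907, 1.06, 1.13, 1.45, 1.52 and 3.38. Only null female 3, at 3.38, reached into the wild-type range. Mfap5 fell by 0.99 (SE 0.19, limma adjusted p = 0.0133). Il17rc, a subunit of the interleukin 17 receptor, was at 4.09 to 5.88 in wild type and 2.18 to 3.54 in the null group, without overlap, and fell by 0.65 (SE 0.11, adjusted p = 0.0101). Its neighbour Creld1, a secretory pathway protein needed in heart development, fell by 0.48 (SE 0.12, adjusted p = 0.0277), with ranges of 9.38 to 14.9 and 6.71 to 11.4 that overlap.

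Tmem40, a membrane protein of unknown role 2.42 Mb below Ret, was at 1.13 to 2.66 FPKM in wild type and 0.386 to 0.965 in the null group and fell by 0.76 (SE 0.14, limma adjusted p = 0.0125). It reached 1 FPKM in 6 of 6 wild-type samples and 0 of 6 null ones at this stage, so it could be tested only because wild type was high. At E10.5 the same gene had been at 1.77 to 2.48 in wild-type females and 0.656 to 0.696 in wild-type males, so its wild-type level was not steady. Adipor2, a receptor for adiponectin, was at 24.4 to 35.1 in wild type and 19.0 to 23.4 in the null group, without overlap, and fell by 0.42 (SE 0.09, adjusted p = 0.0187). Lpcat3, which makes arachidonoyl phospholipids, fell by 0.43 (SE 0.11, adjusted p = 0.0306), and 8430408G22Rik, which overlaps Rassf4, by 0.49 (SE 0.13, adjusted p = 0.0316).

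Ptms was called in opposite directions at E10.5 and E14.5, and the change of its difference between those stages was not itself tested. It was at 295 to 361 FPKM in wild type at E14.5, at 216 to 252 in 5 libraries labelled null and at 345 in null female 3. It fell by 0.44 (SE 0.10, limma adjusted p = 0.0223), whereas at E10.5 it had risen, and at E12.5 it ran from 176 to 257 in wild type and from 182 to 274 in the null group. The FPKM summed over all genes split the libraries in the same way, at 448521 to 491231 in wild type, 497295 in null female 3 and 404022 to 421851 in the other 5 null libraries, and its part in the Ptms difference was not tested. That null female 3, which holds Ret RNA, was also highest of its group for Rpl32 and Grcc10, and without it 36 members passed in place of 21. Leaving out null female 2 gave 9 members, null male 2 or 3 gave 8, null female 1 gave 10, wild-type male 3 gave 12, and null male 1 or wild-type female 1 or 2 gave 13. The share of all genes in these fits is not shown. Females alone or males alone gave 0 members by limma, beside 0.628% and 0.0144% of all genes, with 28 and 32 of 140 at an unadjusted p under 0.05 (20.4% and 24.1% of all genes).

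Of 14 immune genes tested at E14.5, 4 fell and 0 rose (28.6%, beside 15.7% of all genes called), and 10 did not pass. Their median log2 difference was -0.22, beside 0.04 over all genes. With the libraries that hold Ret left out, 2 of the 14 fell, Il17rc and Tapbpl (14.3%, beside 8.61% of all genes called in that comparison). The 4 were Il17rc, Tapbpl (a peptide editor of antigen presentation), Ptpn6 (a phosphatase of blood cells) and C1s (a complement protease). C1s was at 1.13, 1.56, 1.66, 1.77, 2.69 and 7.26 FPKM in wild type and 0.722 to 1.03 in the null group, and fell by 0.78 (SE 0.23, limma adjusted p = 0.0438). Its 7.26 was in wild-type female 1, where summed liver markers stood at 2661 FPKM, beside 61.41 to 244.2 in the other wild-type libraries, and C1s lost its call in 13 of 23 alternative fits. Summed macrophage markers were at 57.75 to 74.97 FPKM in wild type and 42.29 to 60.96 in the null group, and 7 of the 8 genes of that list were found. Erythroid markers were at 3793 to 26960 against 2155 to 5434. The part of these cells in the immune genes was not tested.

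In the other role lists as labelled, to be read against the 15.7% of all genes called at E14.5, 1 of 11 genes of DNA replication, repair and cell cycle passed (Ing4, higher), 2 of 17 transcription and chromatin regulators (Zfp422 and Phc1, both higher), and 2 of 9 neuronal genes (Ntf3 higher, Syn2 lower). In the list of extracellular matrix and secreted signals 2 of 12 were lower, Mfap5 and Adipor2, of which the latter is a membrane receptor. In the metabolism list 2 of 11 were lower (Lpcat3 and again Adipor2), in the vesicle and transport list 1 of 14 was lower (Creld1), and 0 of 11 genes of translation and RNA processing passed. These 8 lists cover 99 of the 147 members and leave out some that would suit them by role, such as Mbd4 (repair) and Fam21 (endosomes), both higher.

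Without the Ret-holding libraries, 17 of 140 members passed at E14.5, 5 higher and 12 lower, which is 12.1% beside 8.61% of all genes. Over all genes called, 543 were higher and 639 lower. The comparison then rests on 3 null libraries (female 2, males 2 and 3), and the count moved to 0 without null male 2 or null male 3, to 2 without null female 2, to 6 without wild-type female 2 or wild-type male 3, to 8 without wild-type female 1 and to 26 without wild-type female 3. Null males 2 and 3 differed by only 1.032 times counting noise, with 1.538% of genes beyond 3 SD, over the limit of 1% for averaging. They entered as separate samples, though they may not be independent. Of the 17, Fam21, Mbd4, Ing4, Mfap5, Syn2, Tmem40, Il17rc, Creld1, Ptms and Tapbpl had also passed as labelled. Tmcc1, Zfp422, Cand2, Bid, Phc1, Ntf3, Adipor2, Lpcat3, Ptpn6, C1s and 8430408G22Rik had passed as labelled and did not pass here. Cxcl12 and Ccnd2 (cyclin D2), both higher, and Lhfpl4, Ghrl, Gapdh, Rpl32 and Grcc10, all lower, passed here and not as labelled. The FPKM summed over all genes was 404022 to 407579 in these 3 null libraries and 448521 to 491231 in wild type. Its part in these differences was not tested.

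Lhfpl4, which anchors GABA receptors at inhibitory synapses, was low where Ret RNA was absent. At E14.5 the wild-type libraries were at 0.629, 0.934, 1.53, 1.57, 1.68 and 1.74 FPKM and the null libraries with Ret RNA at 1.45, 1.48 and 1.86. Those without were at 0.104, 0.128 and 0.256. Without the Ret-holding libraries the difference was -0.96 (SE 0.21, limma adjusted p = 0.036), and as labelled -0.41 (adjusted p = 0.299). At 1 FPKM or more it was found in 4 of 6 wild-type samples at E14.5, in the null libraries with Ret RNA and nowhere else, so it was tested only through the groups where it is high, and its p is no independent support for the difference. The same holds for Syn2 and Tmem40 in this comparison (6 of 6 wild-type and 0 of 3 null samples each). Syn2, a synaptic vesicle protein that overlaps Timp4, was at 1.02 to 2.46 in wild type, 0.932 to 1.33 with Ret RNA and 0.340 to 0.513 without, and fell by 0.90 (SE 0.18, adjusted p = 0.0286). Beside these, summed enteric neuron markers were at 125.7 to 282 FPKM in wild type, 246.1 to 277.5 with Ret RNA and 46.67 to 63.66 without, with none of the 10 markers at 0. Neural crest and glia markers were at 69.38 to 103.9, 89.53 to 111.2 and 55.24 to 57.58. The part of neuron number in Lhfpl4 and Syn2 was not tested.

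Ghrl, the gene of the stomach hormone ghrelin, was at 3.41 to 16.4 FPKM in wild type, 2.48 to 7.06 with Ret RNA and 0.821 to 3.77 without at E14.5. It fell by 1.68 (SE 0.40, limma adjusted p = 0.0433), a call that was lost in 8 of 9 fits that leave out 1 more library. Pancreas markers, which come from an organ beside the stomach, were at 190.9 to 1930 FPKM in wild type and 98.62 to 308.9 in the libraries labelled null. Stomach markers were at 5.688 to 332.3 and 168 to 214.1. Their part in the difference was not tested.

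Averaged over the 3 stages, 9 of 145 members passed as labelled, 6.21% beside 8.1% of all genes, 7 higher and 2 lower. Fam21 rose by 0.23 (SE 0.03, limma adjusted p = 0.000228), Mbd4 by 0.24 (SE 0.05, adjusted p = 0.00475) and Tmcc1 by 0.14 (SE 0.03, adjusted p = 0.00336). These 3 held in all 42 alternative fits. Dcp1b, Ing4 (0.12, adjusted p = 0.00994), Leprel2 (0.22, adjusted p = 0.019) and Atn1 (0.17, adjusted p = 0.0394) also rose, and Tmem40 (-0.34, adjusted p = 0.036) and Adipor2 (-0.14, adjusted p = 0.0432) fell. Among the called members 77.8% were higher, beside 82.5% of all called genes, and with median centring 57.1% of 7 and 57.4%. Without null female 3 of E14.5, 17 members passed, and without wild-type male 1 of E14.5, 16.

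For these 3 genes, none of the differences at E10.5 or E12.5 passed alone. Fam21 ran from 16.6 to 18.6 FPKM in wild type and from 17.6 to 20.006 in the null group at E10.5, and from 15.1 to 18.004 and from 17.6 to 20.4 at E12.5, with overlap at each. At E10.5 their differences were 0.09 for Fam21, 0.13 for Mbd4 and 0.10 for Tmcc1, none past the threshold. Without the Ret-holding libraries, the null libraries of Mbd4 and Tmcc1 lay wholly above wild type at E10.5 and E14.5, which held for 2 of 147 members and 1.78% of all genes.

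Without the Ret-holding libraries, 7 of 145 members passed in the mean of stages, beside 4.33% of all genes. Fam21 (0.26, limma adjusted p = 0.000126), Mbd4 (0.31, adjusted p = 0.00612) and Tmcc1 (0.15, adjusted p = 0.0149) rose. Lhfpl4 (-0.53, adjusted p = 0.00466, again tested only through E14.5 wild type), Rassf4 (-0.39, adjusted p = 0.0133), Atp6v1e1 (-0.17, adjusted p = 0.029) and Creld1 (-0.26, adjusted p = 0.038) fell. Rassf4 is a Ras-association protein and Atp6v1e1 a subunit of the proton pump of acidic organelles. The count was 4 without E10.5 wild-type male 3 or 5, and 11 without E12.5 null female 1 or E14.5 wild-type female 2.

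By distance from Ret, the calls at E14.5 are given for each bin, and most members tested lie beyond 1 Mb. As labelled, 0 of 9 members within 1 Mb passed, 8 of 26 (30.8%) at 1 to 2.5 Mb, 6 of 47 (12.8%) at 2.5 to 5 Mb and 7 of 58 (12.1%) at 5 to 10 Mb. On chromosome 6 outside the window 115 of 549 genes passed (20.9%), and on other chromosomes 2037 of 13164 (15.5%). The 8 at 1 to 2.5 Mb were mostly on one side, with 7 of 13 (53.8%) at lower coordinates (Tmem40, Cand2, Mbd4, Tmcc1, Fam21, Zfp422 and 8430408G22Rik) and 1 of 13 (7.69%) at higher ones (Adipor2). Of those 7, 5 were higher and 2 lower.

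Once the Ret-holding libraries were left out, the shares at E14.5 were 1 of 9 within 1 Mb, 4 of 26 (15.4%), 6 of 47 (12.8%) and 6 of 58 (10.3%), beside 9.59% on the rest of chromosome 6 and 8.52% on other chromosomes. In the mean of stages as labelled they were 0 of 9, 6 of 26 (23.1%), 0 of 51 and 3 of 59 (5.08%), beside 8.79% and 8.08%. After the same removal the mean gave 0 of 9, 4 of 26 (15.4%), 3 of 51 (5.88%) and 0 of 59, beside 4.92% and 4.30%. At E10.5 the shares were 0 of 9, 2 of 23, 0 of 45 and 4 of 52, beside 9.11% on the rest of chromosome 6. Neighbouring genes are not independent of one another, and these shares are given without a test. The bins rest on few genes, so a single call moves the innermost by 11.1 percentage points.

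**Figure D4:**
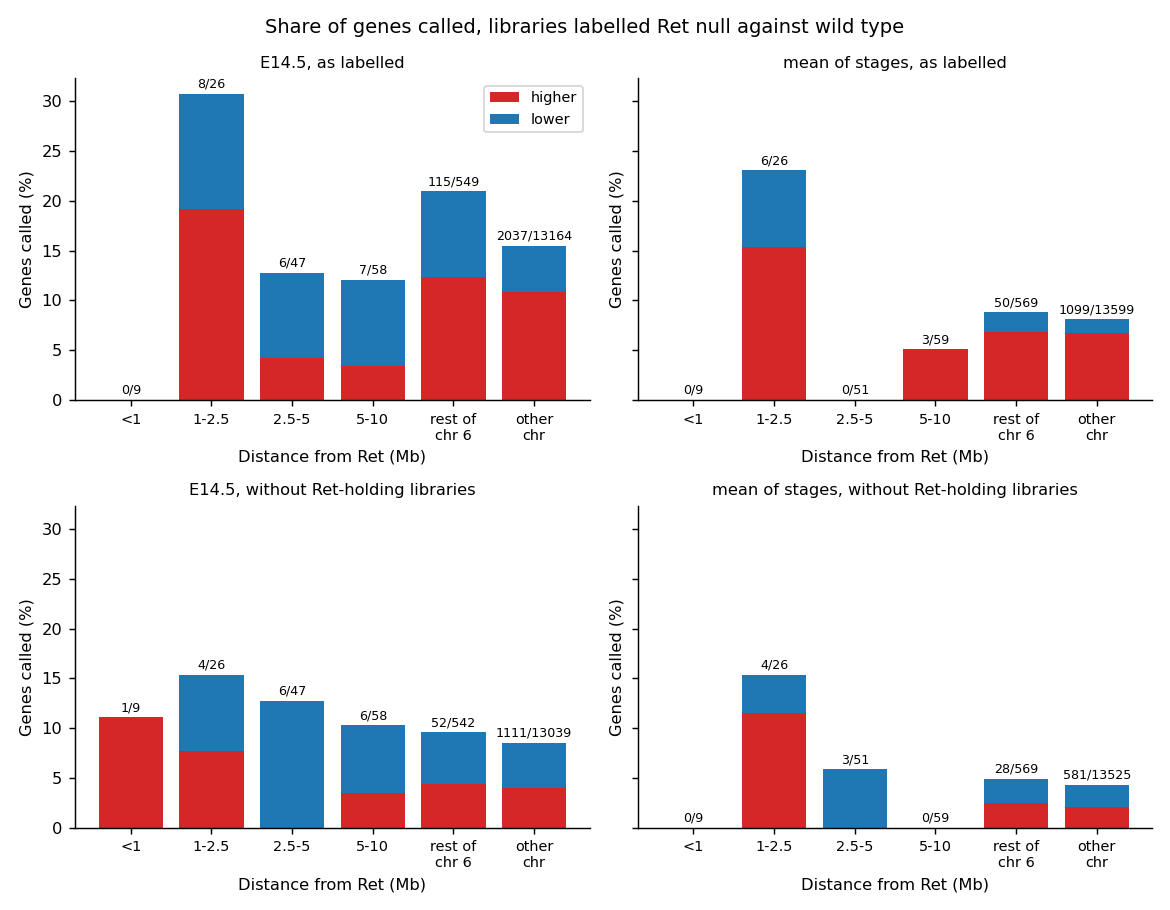
Percentage of genes tested that passed (adjusted p under 0.05, limma), split into higher and lower in libraries labelled Ret null, by distance from Ret and for the rest of the genome, with the counts above each bar. In the upper panels the 1 to 2.5 Mb bin is the tallest (30.8% at E14.5, 23.1% in the mean of stages), and in the lower panels, without the Ret-holding libraries, it stands at 15.4% in both.

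Groups whose libraries did not overlap gave a count free of the model. As labelled, 5 of 147 members had no overlap at E10.5 (5.78% of all genes), 3 at E12.5 and 11 at E14.5 (6.14% of all genes). The 11 were Mbd4, Tmcc1, Fam21, Zfp422 and Ing4, all higher, and Il17rc, Tmem40, Adipor2, C1ra, C1s and Tapbpl, all lower. The counts were 25 at E10.5 (19.0% of all genes), 5 at E12.5 (2.15%) and 37 at E14.5 (25.0%) without the Ret-holding libraries. The share over all genes rose as well with fewer null libraries. No member was separated at all 3 stages in the same direction, beside 0.0969% of all genes.

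More members passed between E12.5 and E14.5 in wild type than in any comparison of genotypes. In wild type, 80 of 145 members passed between E12.5 and E14.5, 47 higher and 33 lower at E14.5, which is 55.2% beside 58.9% of all genes. With quantile normalisation the members split into 34 higher and 42 lower, 44.7% higher in place of 58.8% (38.5% and 52.7% over all genes). Without the Ret-holding libraries, which enter this comparison only through the estimate of the spread, 81 members passed, 47 higher and 34 lower. Between E10.5 and E12.5, 0 of 145 members passed by limma, beside 4.57% of all genes, and 19 had an unadjusted p under 0.05 (13.1%, beside 18.7%). Depth also differs between stages, from 21.6 to 51.3 M fragments at E12.5 to 6.08 to 9.67 M at E14.5, and its part was not tested. The wild-type samples are shared with the genotype comparisons, so the 2 kinds of difference are not independent.

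**Figure D5:**
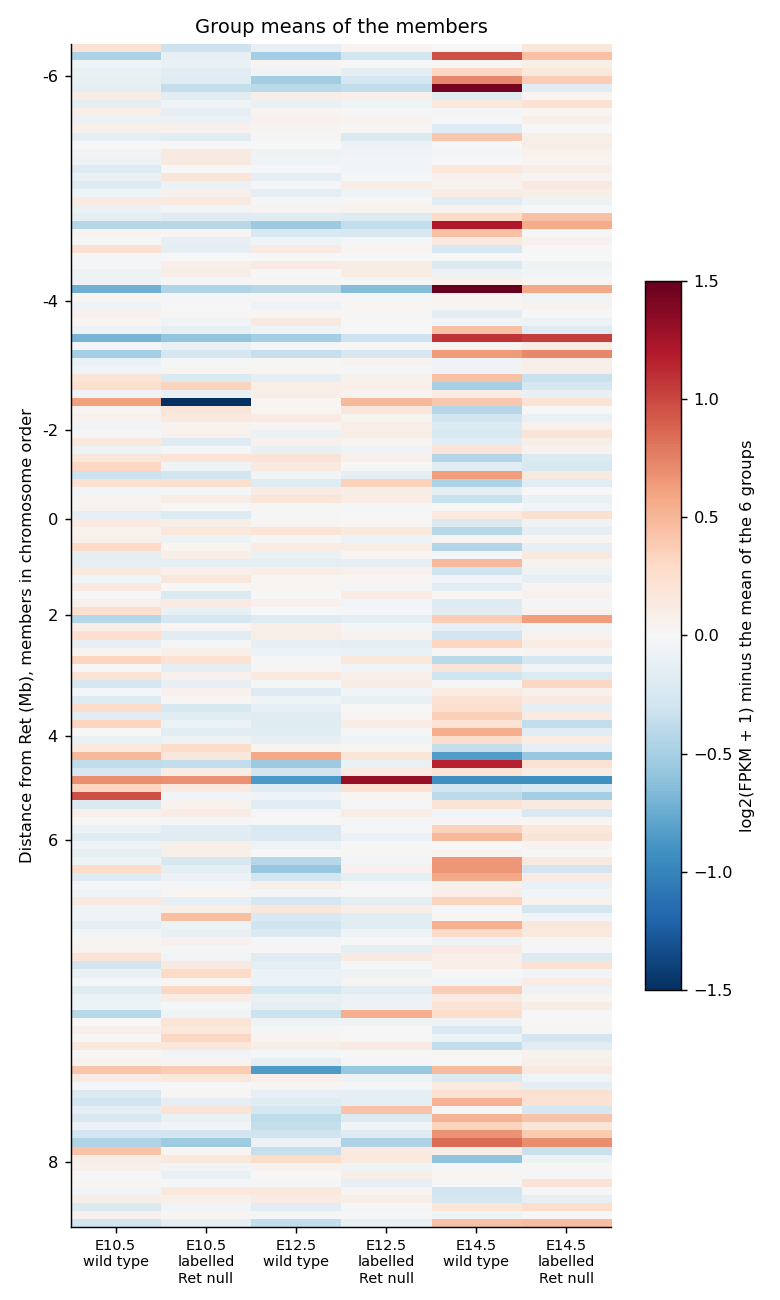
Heat map of the group means of the members in log2(FPKM + 1), each row a member in chromosome order (distance from Ret in Mb on the vertical axis) and centred on the mean of its 6 group means, with stage and labelled genotype as columns. The E14.5 wild-type column holds the strongest colours, where 47 members were higher and 33 lower than at E12.5.

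The 6 members with the largest rises with stage were Ghrl, Il17rc, Mfap5, Pparg, Cav3 and Bhlhe40. Ghrl went from 0.235 to 2.31 FPKM at E12.5 to 3.41 to 16.4 at E14.5 and rose by 2.03 (SE 0.34, limma adjusted p = 2.73e-05). Il17rc went from 0.657 to 0.960 up to 4.09 to 5.88 (1.74), Mfap5 from 0.267 to 0.934 up to 2.56 to 5.54 (1.68), and Pparg, the regulator of fat cell genes, from 0.328 to 0.693 up to 2.32 to 4.32 (1.58). None of these ranges overlapped. However, Il17rc, Mfap5, Pparg and Cav3 reached 1 FPKM in no E12.5 wild-type sample. A fall could hardly have shown in them, so their rises rest on the stage where they are high. Bhlhe40, a clock-linked repressor, rose by 1.44. Cav3, a muscle caveolin, rose by 1.45 (SE 0.33), with its highest value of 9.40 FPKM in E14.5 wild-type male 2, where summed heart markers stood at 1488 FPKM beside 17.57 to 70.17 in the other wild-type libraries. Without that library Cav3 rose by 1.002.

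Rimklb fell most with stage, from 14.6 to 17.97 FPKM at E12.5 to 5.005 to 7.45 at E14.5 (-1.43, SE 0.10, limma adjusted p = 2.69e-10). Ntf3 fell by 0.90, Zfp422 and Zfp248 each by 0.64, Cand2 by 0.61 and Ankrd26 by 0.58. Within 1 Mb of Ret, 5 of 9 members passed (55.6%, beside 58.9% of all genes) and all 5 fell (Zfp239, Zfp637, Bms1, Zfp248 and Ankrd26). At 1 to 2.5 Mb, 19 of 26 passed (73.1%, 6 higher and 13 lower), at 2.5 to 5 Mb 26 of 51 (51%, 19 and 7) and at 5 to 10 Mb 30 of 59 (50.8%, 22 and 8). Over all called genes 52.7% were higher. The 11 called members at 1 FPKM in no E12.5 wild-type sample all lie beyond 2.5 Mb and were all higher. Part of the rises in the outer bins therefore rests on the stage where these genes are high.

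By role, again beside 58.9% of all genes, 7 of 11 genes (63.6%) of DNA replication, repair and cell cycle passed and all fell with stage, led by Chd4, a chromatin remodeller (-0.47, limma adjusted p = 4.19e-06). Of 15 immune genes 12 passed (80%) and these 12 rose. Summed macrophage markers in wild type were at 27.5 to 47.66 FPKM at E12.5 and 57.75 to 74.97 at E14.5, without overlap, and their part was not tested. Of the 80 members called with stage, 11 were at 1 FPKM in no E12.5 wild-type sample and all 11 were higher at E14.5, among them the immune genes A2m, C1ra, C1s, Clec4n, Il17rc and Usp18. Of 18 transcription and chromatin regulators 13 passed (5 higher, 8 lower), of 12 matrix and secreted genes 8 (6 and 2), of 14 vesicle genes 6 (5 and 1), of 10 metabolic genes 6 (5 and 1) and of 10 neuronal genes 5 (2 and 3). In translation and RNA processing 1 of 11 passed, Bms1, which fell by 0.26 (adjusted p = 0.000179).

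The genotype difference itself changed between E12.5 and E14.5 for 30 of 145 members, 20.7% beside 17.4% of all genes, 17 with a higher and 13 with a lower difference at E14.5 (56.7% higher). With median centring 20 members passed, beside 2184 of all 14321 genes. Of the 20, 3 were higher and 17 lower (15.0% higher, beside 44.9% over all called genes). Leaving out the Ret-holding libraries, 31 of 145 passed (21.4%, beside 18.0% of all genes), 13 higher and 18 lower, so that the share higher was 41.9% (59.4% over all genes, beside 64.4% as labelled). The largest such changes among named genes were those of Mfap5 (-1.36, SE 0.30, limma adjusted p = 0.00584) and C1s (-1.31, SE 0.35, adjusted p = 0.0151), followed by Tmem40 (-0.90) and Il17rc (-0.82, SE 0.16, adjusted p = 0.00387). Rimklb (0.67, SE 0.14, adjusted p = 0.00533) and Ntf3 (0.68, SE 0.19, adjusted p = 0.019) changed the other way. Rimklb stood lower in the null group at E12.5, with overlap and without passing at that stage alone. At E14.5 it ran from 5.42 to 9.35 FPKM in the null group, beside 5.005 to 7.45 in wild type. For Fam21 the change was 0.25 (adjusted p = 0.0203). Mfap5, C1s and Il17rc reached 1 FPKM in no E12.5 wild-type sample and Tmem40 in only 2. The E12.5 side of their changes therefore rests on wild-type values near the floor. In the same smaller set the changes of Mfap5 (-1.37), Il17rc (-0.95), Tmem40 (-0.85), Rimklb (0.74), Ntf3 (0.86) and Fam21 (0.34) passed, and that of C1s (-1.23, limma adjusted p = 0.055) did not. The count of 30 was 15 to 18 without any of E12.5 null female 3, E12.5 wild-type females 1 or 3 and E14.5 null females 1 or 2. Between E10.5 and E12.5 the genotype difference changed for 0 of 145 members by limma, beside 1.34% of all genes, with 20 at an unadjusted p under 0.05 (13.8%, beside 14.6%). It changed for 0 of 145 by limma without the Ret-holding libraries (0.00702% of all genes), with 10 at an unadjusted p under 0.05 (6.9%, beside 11.0%).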

How the data were processed

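The data are 36 mRNA libraries of mouse gut, read as 75-base pairs on an Illumina sequencer per the labels' protocols. The deposited values are FPKM per gene with an interval and a status, 1 file a library; the submitters' processing notes name Picard, TopHat2, Cufflinks, Cuffdiff and mm10, with versions not given in the sources used here. Starts were counted from 1 after a check against RefSeq.

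The members and gene lists were chosen with earlier results of these data known. Values were tested as log2(FPKM + 1) with limma 3.58.1 (R 4.3.3; empirical Bayes with trend, two-sided, Benjamini-Hochberg over every gene that reached 1 FPKM in 3 samples), called at an adjusted p under 0.05, and log2 differences are on that scale, which understates changes of low genes. Each stage was fitted alone with 4 group means, averaged over the sexes; the mean of stages and the stage comparisons came from 1 fit of 12 group means. Genes without an OK status in a library of the fit were left out. The script was tested on simulated data. Depth was estimated from the authors' intervals, so it covers counting error only. Pairs of libraries whose spread was at most 1.1 times counting noise, with at most 1% of genes beyond 3 SD, were averaged.

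Named genes were the 5 nearest on each side, called members per genotype comparison (at most 16, otherwise the 8 largest in each direction, or the 3 smallest p where none passed), the 6 largest changes with stage in each direction, the leading called member of each list, the 5 highest medians and the neighbours of each threshold. Other called members, C1ra, Ift122, Zfand4 and the neighbours of called genes were named after their values were seen. Replicate numbers did not pair the samples (see the alternatives). Alternatives changed the pseudocount, filter, scaling, trend, averaging of pairs, left-out libraries, samples in the fit and replicate block; females or males alone, and leaving out samples after removing Ret-holding libraries, were chosen after seeing the data.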

Additional observations from a re-analysis of the deposited data

Results flagged for a closer look

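Of 50 groups of values examined for 1 library far from the others, 6 held one, and chance alone gives about 1 in 20 groups. Kdm5a stood at 8.145 FPKM in E10.5 null female 3, above the other libraries labelled null. At E14.5, Phc1 stood high in wild-type male 1 (19.26 FPKM), C1s stood high in wild-type female 1 (7.26) and Ptms stood low in wild-type female 1 (295.1). In E14.5 null female 3, Mfap5 (3.381) and Ptms (344.9) stood above the other 5 null libraries. The last library is labelled Ret null and holds Ret RNA.

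For 14 named members the genotype difference in log2(FPKM + 1) was itself different at E14.5 and E12.5 by limma. It was lower at E14.5 by -1.36 for Mfap5, -1.31 for C1s, -0.90 for Tmem40, -0.82 for Il17rc, -0.54 for Ptms, -0.46 for Creld1, -0.46 for Tnfrsf1a and -0.43 for Adipor2. It was higher by 0.68 for Ntf3, 0.67 for Rimklb, 0.37 for Ccnd2, 0.25 for Fam21, 0.24 for Ing4 and 0.20 for Tmcc1. Mfap5, C1s and Il17rc reached 1 FPKM in no E12.5 wild-type sample, so their E12.5 side rests on wild-type values near the floor.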

How the results depend on the processing

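No named result changed direction under any alternative; over named genes and alternatives, 1903 values kept their side of the threshold, 316 lost it and 6 gained it. Where a count of members called moved by over 1.5 times, the cause was not tested. Where no share of all genes stands beside a count in this section, whether all genes moved alike is not shown. For Ret null against wild type at E10.5 (6 members), the count was 31 with every library counted and 14 in 1 fit of all libraries. That fit called 1334 of all 14321 genes, beside 1091 of 13165 with the stage alone. The count was 2 without the 4 libraries of mismatched sex genes, and 0 without Ret-holding libraries or in males alone. Of all genes, 68 of 13037 passed without Ret-holding libraries and 14 of 13165 in males alone. At E14.5 (21 members) the count was 52 in 1 fit of all libraries. That fit called 4554 of all 14321 genes, beside 2175 of 13861 with the stage alone. In females alone or males alone the count was 0 (0.628% and 0.0144% of all genes). For the mean of stages (9 members) the count was 22 with every library counted. For wild type at E12.5 against E10.5 (0 members) it was 13 with every library counted and 1 without Ret-holding libraries, with a pseudocount of 0.1, with median centring or with quantile normalisation. The genotype by stage count between E10.5 and E12.5 (0) was 7 with every library counted, and that between E12.5 and E14.5 (30) was 46 with every library counted and 15 without the 4 libraries of mismatched sex genes.

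Leaving out 1 library at a time gave 1 to 12 members at E10.5, 0 to 0 at E12.5, 8 to 36 at E14.5, 6 to 17 for the mean of stages, 0 to 3 for wild type at E12.5 against E10.5, 71 to 83 for wild type at E14.5 against E12.5, and 0 to 1 and 15 to 39 for the 2 genotype by stage comparisons. After removing the Ret-holding libraries the ranges were 0 to 2, 0 to 2 and 0 to 26 at the 3 stages and 4 to 11 for the mean.

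Replicate numbers do not mark litters in the labels, and same-numbered samples deviated together in 3 of 16 pairs (correlations from -0.295 to 0.301), with 6 samples closest to their own number. A replicate block, with every library counted, gave 12 members at E14.5 in place of 21, 2 for wild type at E12.5 against E10.5, 1 for genotype by stage between E10.5 and E12.5, and 8, 0, 8, 66 and 37 for the others. Depth at E14.5 (6.08 to 9.67 M fragments) limits what low members can show.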
